A study of Mus musculus with 4 samples.

Results

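The cells described here are the parietal cells that remained in the corpus of the mouse stomach 1 day after the parietal cell toxin L635. They were chosen by the RNA of the acid pump itself. A barcode of the day 1 library was taken when it had at least 500 UMIs (unique molecular identifiers, each marking 1 captured RNA molecule), at least 200 genes, at most 50% of its UMIs from mitochondrially encoded genes, and at least 50 UMIs of Atp4a and Atp4b together per 10000. This left 298 of 3926 day 1 cells, or 7.59% (exact Clopper-Pearson 95% interval 6.78 to 8.46). The reference was 4470 of 13897 cells of the untreated library chosen by the same thresholds, or 32.2% (31.4 to 32.9). The shares of cells and the levels of Atp4a and Atp4b follow from this rule and are given as a description.

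The animals were C57BL6/J wild-type mice of 6 to 7 weeks, and all groups were wild type. The untreated group received PBS, and the 3 other groups received L635 once by mouth at 350 mg/kg and were sampled at day 1, at day 3, or at day 3 with AREG (amphiregulin, which activates the EGF receptor, EGFR). There was 1 library per group, prepared with PIPseq T20 3′ capture from dissociated corpus cells. The compound Y-27632 was used at 10 nM for every group. The sources used here do not give how many mice each library holds, nor the dose and schedule of AREG. No difference below therefore has a replicate check, no p-value is given, and an effect of L635 cannot be told apart from a difference between 2 libraries.

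Parietal cells secrete hydrochloric acid. The H+/K+ ATPase, made of the catalytic subunit Atp4a and the glycosylated subunit Atp4b, is held in tubulovesicles and moves to the canalicular membrane when histamine, gastrin or acetylcholine act on the cell. Potassium and chloride channels supply the ions, and abundant mitochondria and creatine kinase supply ATP. Parietal cells also release EGF-family ligands and other signals to neighbouring lineages, and their loss is followed by changes in chief and mucous neck cells.

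The label was checked with the 8 parietal markers that the rule did not use (Ckb, Kcne2, Kcnq1, Aqp4, Clic6, Cckbr, Hrh2 and Esrrg). All 8 were detected in the 298 cells, and their summed level was 2358 CPM (UMIs in the summed cells, scaled to 1000000 in all) against 108 in the other 3628 day 1 cells and 328 in day 1 free RNA (barcodes under 50 UMIs). In the untreated library the chosen cells stood at 4635, the other cells at 94.1 and free RNA at 1229. Of the markers of other cells, the 5 chief markers (pepsinogens, intrinsic factor Cblif, Chia1 and Bhlha15) summed to 4597 CPM at day 1 and 21989 in the untreated set. The 4 pit markers (Gkn1, Gkn2, Muc5ac and Tff1) summed to 18024 and 22212. Immune markers summed to 2.15 and 3.36 CPM, with Cd3e, Cd79a, Lyz2 and C1qa at 0 in the day 1 cells, and stromal markers to 6.46 and 2.58, with Col1a1 and Acta2 at 0.

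Some chosen cells held more UMIs of pit, neck, chief and cycle markers than of the acid pump. These mixed cells were 93 at day 1 (31.2%) and 1316 in the untreated set (29.4%). At day 1 they were shallow, with a median of 1111 UMIs against 6149 in the other 205. Free RNA held 14.04 acid pump UMIs per 10000 at day 1 and 76.7 in the untreated library, 101 at day 3 and 99.1 with AREG. The last 3 are above the threshold of 50, so the free RNA of every library but day 1 met it by itself. No doublet caller was run here. Cell barcodes shared between 2 libraries numbered 0 to 3 per pair, and none of them belonged to chosen cells in both.

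The libraries held 56007532 to 98893436 UMIs. The day 1 parietal cells had a median of 4355 UMIs and 1638.5 genes per cell, and the untreated ones 1829.5 and 880. Their median mitochondrial shares were 13.5% and 14.7%. The 298 cells together held 2786199 UMIs, of which the deepest cell gave 2.84%, and the untreated set held 12788384.

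Acid pump RNA per cell had a lower median at day 1. It was 147 UMIs per 10000 at day 1 (quartiles 89.3 and 211, highest 463) and 297 in the untreated set (229 and 349, highest 651). The untreated cells formed a separate peak, with few cells near the threshold. At day 1 there was no such gap: 22 cells lay just inside the threshold, at 50 to 60 per 10000, and 22 just outside, at 40 to 50, with medians of 54.5 and 44.3. In the untreated library the same bands held 75 and 72 of a far larger set.

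**Figure D1:**
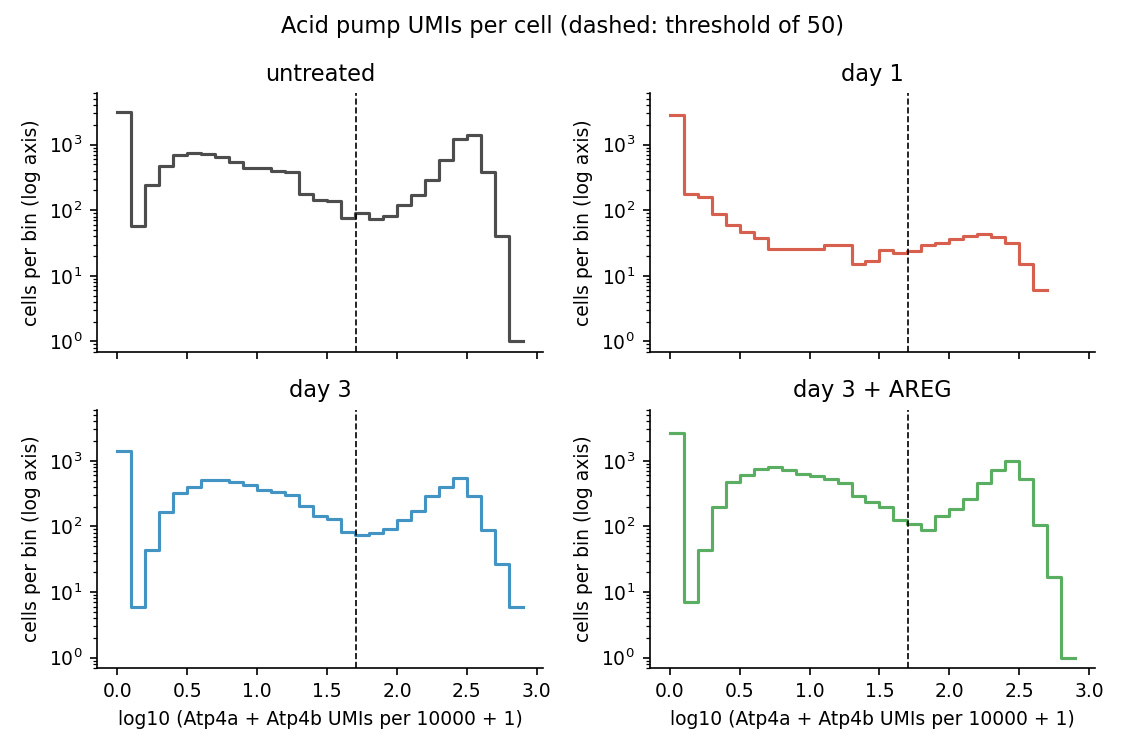
Cells (log axis) by Atp4a plus Atp4b UMIs per 10000 (log10 scale, 1 added) in each of the 4 libraries; the dashed line is the threshold of 50. The untreated and both day 3 libraries have a separate peak to the right of the line, and the 298 day 1 cells form a low, broad shoulder.

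Within the pump, the glycosylated subunit stood further below its untreated level than the catalytic one. Atp4b stood at 5562 CPM at day 1 (exact Poisson 95% interval 5475 to 5651) and 13085 in the untreated set (13023 to 13148), 2.35-fold lower. With only cells of at least 100 or 200 pump UMIs per 10000 in both libraries, its log2 ratio of (CPM + 1) was -0.92 or -0.51, against -1.23 with all chosen cells. Atp4a stood at 10626 and 13527, 1.27-fold lower. The ratio of Atp4b to Atp4a UMIs was 0.967 in the untreated set (0.961 to 0.974), 0.523 at day 1 (0.513 to 0.534), 1.19 at day 3 and 0.971 with AREG. Without the mixed cells it was 0.951 and 0.490. The day 1 ratio was the lowest of the 4 libraries. Both genes were used to choose the cells, so these values are a description, and their intervals cover counting error in 1 library each. In cells thinned to 500 UMIs each, so that depth was equal, 74.8% of day 1 cells held an Atp4b UMI (69.5 to 79.7) and 97.7% of untreated ones, against 1.74% of other day 1 cells. For Atp4a the shares were 98.7% and 98.0%.

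Most other genes of acid secretion were not called. Of 15 listed ion transport genes 14 were compared, with at least 10 CPM in either set, and their median log2 ratio of (CPM + 1) was -0.54. A gene was called at a log2 ratio of 1 or more in either direction. Over all 7860 genes compared the median was 0.27, 949 genes (12.1%) were called higher and 238 (3.03%) lower. Of the 14, 1 was called higher and 4 were called lower: Aqp4, Kcnq1, Kcnj16 and Clic6 were the lower ones. Kcnq1, the potassium channel of the canaliculus, stood at 141 CPM against 312, and its subunit Kcne2 at 222 against 390, a log2 ratio of -0.81 that missed the call. Clic6, a chloride channel protein, stood at 693 against 1434, and the potassium channel Kcnj16 at 231 against 485. Clic6 missed the call with at most 20% mitochondrial UMIs (-0.98) and with pump thresholds of 100 (-0.92) and 200 (-0.71). Kcnq1 missed it with a threshold of 200 (-0.99). Aqp4, a water channel of parietal cells deep in the gland, had only 6 UMIs at day 1, or 2.15 CPM (0.790 to 4.69) against 30.3 (27.3 to 33.4), and it stood at 55.1 CPM at day 3. Slc4a2, the basolateral anion exchanger, stood at 344 against 618.

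Atp1b1, a beta subunit of the sodium pump, stood above its untreated level, at 1512 CPM against 822, and was not called. With only cells of at least 200 pump UMIs per 10000 in both libraries, 1 of the list was called lower (90 and 3644 cells). In that setting 3.56% of all genes compared were called lower. Among tubulovesicle and membrane trafficking genes 1 of 17, Dnm2, a dynamin of endocytosis, was called higher and none lower, with a median of 0.47. Of all genes compared 12.1% were called higher and 3.03% lower, so nothing is read from this 1 gene.

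Receptors for acid stimulation differed among themselves. Cckbr, the gastrin receptor, stood at 49.2 CPM at day 1 (41.3 to 58.1), 10.2 in the untreated set (8.49 to 12.1), 12.7 at day 3 and 12.9 with AREG. Day 1 was the highest of the 4 libraries, at 4.84-fold the untreated level, while other day 1 cells stood at 2.49. Hrh2, the histamine receptor, stood at 64.6 against 47.3, and Chrm3, the muscarinic receptor, at 31.6 against 25.5. Of the 5 receptors compared, Cckbr was the 1 called higher. Ptger3, a prostaglandin E receptor, was the 1 called lower, at 4.67 against 11.7 from 13 day 1 UMIs. For scale here and in the next list, 12.1% of all genes compared were called higher and 3.03% lower. Of 7 regulators compared, Ppargc1a, a coactivator of mitochondrial genes, was called higher, at 55.3 against 26.1, a log2 ratio of 1.05. It missed the call under 6 alternatives, at 0.85 to 0.98, among them the set without mixed cells. Esrrg, a nuclear receptor of parietal cells, stood at 244 against 219.

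The antioxidant genes of the NRF2 pathway were higher as a group. NRF2 is a transcription factor that electrophiles and oxidants release from KEAP1, after which it binds antioxidant response elements near genes of glutathione and thioredoxin metabolism. Of 32 listed targets, all compared, 24 were called higher and none lower, with a median log2 ratio of 1.63. That is a share of 75.0% against 12.1% of all genes compared. This list, like the others here, was chosen with earlier results of these data known, so its share is no independent evidence. With only cells of at least 200 pump UMIs per 10000 the count was 15. In the other day 1 cells against the other untreated cells, 11 of the 32 were called higher, with a median of 0.76. The share of all genes called between those other cells was not computed.

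Among the genes of glutathione and thioredoxin, Gclc, the catalytic subunit of the rate-limiting enzyme of glutathione synthesis, stood at 819 CPM at day 1 (785 to 853), 25.6 in the untreated set (22.9 to 28.6), 46.7 at day 3 and 44.5 with AREG. That is 31.9-fold the untreated level, and the other day 1 cells stood at 142. Its partner Gclm, the modifier subunit, stood at 622 against 378 and was not called. Srxn1, which repairs oxidised peroxiredoxins, stood at 207 CPM (191 to 225) at day 1, 9.77 in the untreated set, 22.0 at day 3 and 25.3 with AREG, and at 45.1 in other day 1 cells. Txnrd1, thioredoxin reductase, stood at 423 against 91.0, and Gsr, glutathione reductase, at 227 against 55.2.

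Among the genes of carbonyl and quinone reduction, Akr1b8, an aldose reductase family member, stood at 446 CPM against 18.7, and Cbr3, a carbonyl reductase, at 370 against 34.7. Cbr3 was nearly as high in other day 1 cells, at 390. Nqo1, a quinone reductase, stood at 223 against 91.2, below the 557 of other day 1 cells. The glutathione transferase Gstm1 stood at 988 against 225 and the glutathione peroxidase Gpx2 at 663 against 164. Genes of the pentose phosphate pathway, which supplies NADPH, differed by 2.02-fold to 2.85-fold: Pgd stood at 300 CPM against 105, G6pdx at 76.5 against 28.6, Taldo1 at 765 against 337 and Tkt at 446 against 221. Hmox1, haem oxygenase, was called higher at 24.4 against 1.88, but a single cell held 72.1% of its day 1 UMIs. Fth1, the ferritin heavy chain, was the only listed gene below its untreated level, at 4388 against 5429. In level, 18 of the 32 genes stood above the other day 1 cells.

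The spread between cells was wide. Summed over the 32 genes, the median day 1 cell held 164 UMIs per 10000, the cell at the 10th percentile 71.1 and that at the 90th 334. In the untreated set the same 3 values were 98.6, 52.7 and 160, so the lower day 1 cells lay within the untreated range. Medians at day 3 and with AREG were 84.4 and 81.4.

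The binding element was searched in the promoters of these genes, since the list was built on that pathway. The letters TGACNNNGC, the core of the antioxidant response element, were looked for on both strands from 250 bases before to 50 after the start of each gene in RefSeq's table (build GRCm38.p6). Of all 27025 genes in the table, 13.99% held a match, and of the 6298 of them that were compared here, 17.9%. Of the 32 NRF2 genes 26 were in the table, and 10 of them (38.5%) held a match. Among those called higher 8 of 18 did, and among the rest 2 of 8. These are counts of letters, not of bound sites. A match wholly upstream of the start was held by 5 of those 18 (27.8%) and 2 of those 8 (25%), against 14.8% of the genes compared here, so called and uncalled genes of the list had similar shares. The windows of all 7, with Sprr1a beside them as the highest gene of the comparison, are shown with 16 bases on each side, 5′ to 3′ on the gene's strand, with the match in capitals. They lie at chr10:82859098-82859138 (+, Txnrd1), chrX:74428913-74428953 (−, G6pdx), chr6:138140455-138140495 (+, Mgst1), chr5:65435950-65435990 (−, Ugdh), chr14:118706220-118706260 (−, Abcc4), chr3:122245407-122245447 (+, Gclm, not called), chr4:116685450-116685490 (+, Prdx1, not called) and chr3:92486005-92486045 (−, Sprr1a).
Txnrd1: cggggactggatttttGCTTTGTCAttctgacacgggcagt
G6pdx: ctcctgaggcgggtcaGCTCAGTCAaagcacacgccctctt
Mgst1: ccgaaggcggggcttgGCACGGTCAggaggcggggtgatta
Ugdh: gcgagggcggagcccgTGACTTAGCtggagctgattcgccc
Abcc4: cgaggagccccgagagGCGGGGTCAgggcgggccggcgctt
Gclm: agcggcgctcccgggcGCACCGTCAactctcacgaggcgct
Prdx1: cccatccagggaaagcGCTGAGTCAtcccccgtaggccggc
Sprr1a: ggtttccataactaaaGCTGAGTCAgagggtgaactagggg
Only the Ugdh window has the letters in their forward sense; in the other 7 the capitals are their reverse complement. The matches begin 132 (Ugdh), 92 (Txnrd1), 57 (G6pdx), 56 (Mgst1), 25 (Abcc4), 134 (Gclm), 133 (Prdx1) and 148 (Sprr1a) bases before the start. Ugdh, UDP-glucose dehydrogenase, held a further match, 94 bases before it. The matches of Sprr1a and Prdx1, a peroxiredoxin that was not called, overlap the letters TGAGTCA, which are also a form of the AP-1 element. Gclc was not in the table.

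Across all genes compared, the 15 named genes furthest above the untreated set were led by Sprr1a, a small proline-rich protein of stressed and cornified epithelium. It stood at 1098 CPM at day 1 (1059 to 1138), 2.58 in the untreated set (1.78 to 3.62), 2.19 at day 3 and 4.29 with AREG. The day 1 level was 425-fold the untreated one and also above other day 1 cells, at 429, and free RNA, at 387. Thinned to 500 UMIs, 22.5% of the day 1 cells held a Sprr1a UMI (17.9 to 27.7), against 0.134% of untreated parietal cells and 11.7% of other day 1 cells.

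Obp2a stood far above the other cells of its library in both sets. This gene, a lipocalin of the odorant-binding family, stood at 1055 CPM at day 1 (1017 to 1094), 42.1 in the untreated set (38.7 to 45.9), 4.64 at day 3 and 3.75 with AREG. Other day 1 cells stood at 17.4 and other untreated cells at 0.757. It thus stood highest at day 1, and at day 3, with and without AREG, it stood below the untreated set. Of thinned cells 26.5% held a UMI at day 1 (21.6 to 31.9) and 2.66% in the untreated set, against 0.606% of other day 1 cells.

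Of these 15 genes, 10 stood higher in the parietal cells than in the other day 1 cells. Besides Sprr1a, Gclc, Obp2a, Akr1b8 and Srxn1 they were Ly6d, Hamp, Olfr1033, Abi1 and Clic3. Ly6d, a GPI-anchored surface protein, stood at 281 CPM against 14.5 untreated and 30.4 in other day 1 cells. Hamp, hepcidin, the hormone that blocks iron export, stood at 119 against 7.27 and 4.02. Abi1, a regulator of actin assembly, stood at 342 against 31.3 and 156. At day 3, 12 of the 15 were under 2-fold of the untreated set, and 12 with AREG.

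The other 5 stood lower in the parietal cells than around them. S100a6, a calcium-binding protein, stood at 2742 CPM against 70.8 untreated, but at 14494 in other day 1 cells and 12283 in free RNA. Lgals3, galectin-3, stood at 115 against 4.85, and at 580 in other day 1 cells. Anxa2, annexin A2, stood at 181 against 10.9, and Krt7, a keratin, at 132 against 12.7, with 396 and 348 in other day 1 cells. Cbr3 was the fifth. After subtraction of free RNA at the share that would account for all chief marker UMIs, S100a6 and Lgals3 were at 0 in both sets.

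**Figure D2:**
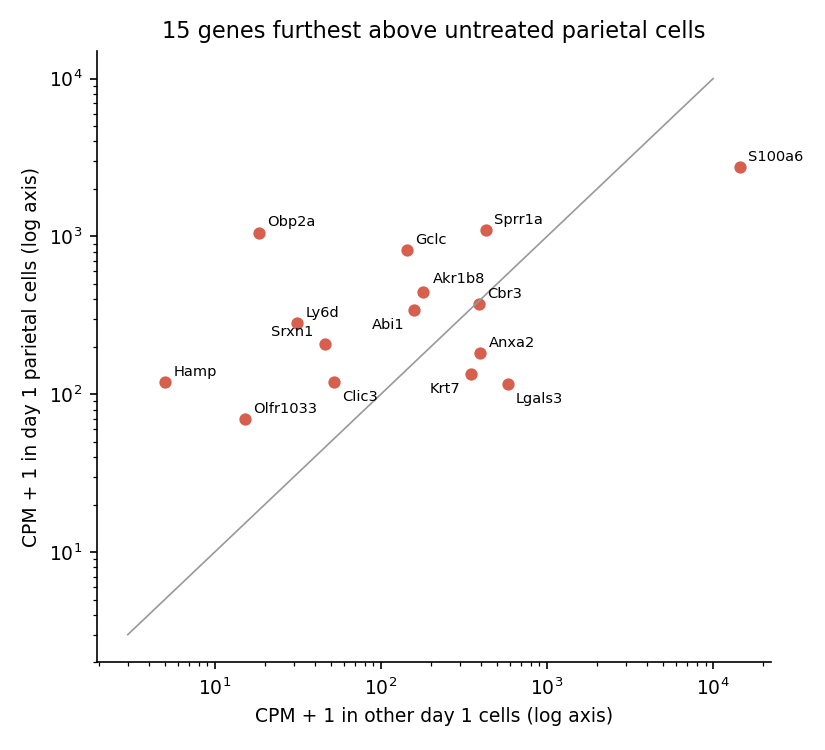
CPM + 1 of the 15 genes furthest above the untreated parietal cells, in the 298 day 1 parietal cells (vertical, log axis) against the other 3628 day 1 cells (horizontal, log axis); the line marks equal levels. Obp2a, Hamp, Ly6d, Gclc and Srxn1 lie well above the line, and S100a6, Lgals3, Anxa2 and Krt7 below it.

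The list of wounded epithelium showed the same split. Of 26 genes compared 20 were called higher (76.9%, against 12.1% of all genes), with a median of 2.40, but only 6 of the 26 stood above the other day 1 cells in level, and in those other cells 20 were also called higher, with a median of 1.86. The share of all genes called in those other cells was not computed, so their count has no background beside it. The list's summed level was 16734 CPM in the parietal cells and 46513 around them. It was chosen with earlier results of these samples known, so its direction is no independent evidence. Tnfrsf12a, the TWEAK receptor, stood at 187 against 19.9 and above other day 1 cells, at 134. Clu, clusterin, stood at 4116 against 774, below their 5278. Plaur, the urokinase receptor, stood at 38.0 against 1.02. Lgals1, galectin-1, was the 1 gene called lower, at 107 against 309. The count was 12 after the subtraction of free RNA by chief markers and 9 with cells of at least 200 pump UMIs per 10000.

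**Figure D3:**
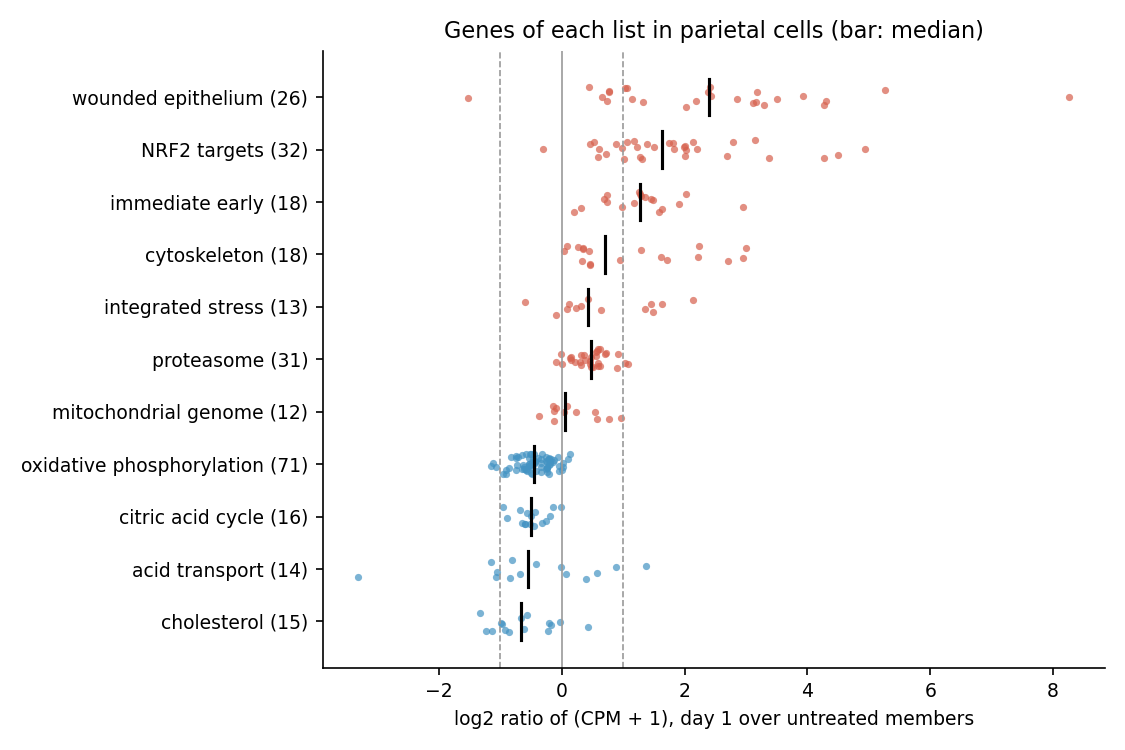
Log2 ratio of (CPM + 1), day 1 over untreated parietal cells, for each compared gene of 11 lists (points), with the list's median (bar), its number of genes in parentheses, and dashed lines at the call of 1 in either direction. The wound and NRF2 lists have medians of 2.40 and 1.63, and the oxidative phosphorylation, citric acid cycle, acid transport and cholesterol lists lie mostly below 0.

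Immediate early genes, the first to respond to growth factor or stress signals, were also higher. Of 18 compared, 12 were called higher and none lower (median 1.28), a share of 66.7% against 12.1% of all genes compared. Klf6 stood at 201 CPM against 52.6, Junb at 340 against 132, and Fos at 886 against 364. In other cells 14 of the 18 were called higher, with a median of 1.40, and the share of all genes there was not computed. Dissociation took 5 min at 37 °C in every group, and Y-27632 was used at 10 nM for each. The part of either in these values was not tested. Of 8 genes of ERK signalling compared 4 were called higher, against 12.1% of all genes compared. They were Dusp4 (32.7 against 5.08), Dusp5, Spry2 and Epha2 (36.6 against 3.21). The ERK list summed to 511 CPM in the day 1 parietal cells and 317 in the untreated ones. In other cells it summed to 300 at day 1 and 120 untreated.

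Other stress lists differed in how many genes were called. For scale, 12.1% of all genes compared were called higher and 3.03% lower. Of 13 genes of the integrated stress response 5 were called higher (Atf4, Atf3, Psat1, Slc3a2 and Cebpb), with Atf4 at 222 CPM against 78.5, while Asns stood at 90.5 against 83.4 and Ddit3 at 24.8 against 26.4. Of 14 genes of the unfolded protein response none was called higher and 1, Creld2, lower. Of 12 heat shock genes none was called higher and 3 were called lower (Hspa1a, Hspa1b and Hsph1), Hspa1a at 33.0 CPM against 138. Of 10 p53 targets Pmaip1, Btg2 and Perp were called higher, whereas Cdkn1a, the inhibitor of cyclin-dependent kinases, stood at 546 against 455. Of 31 proteasome genes Psmd2 and Psmd3 were called higher, with a median of 0.48.

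Metals and protein clearance gave single strong genes. The metallothioneins Mt1 and Mt2, which bind zinc and copper, stood at 3205 CPM against 884 and at 899 against 257. Sqstm1, an autophagy adaptor that also binds KEAP1, stood at 456 against 87.4 and in other day 1 cells at 98.5. Tfrc, the transferrin receptor, was called lower, at 58.5 CPM (49.9 to 68.2) at day 1 and 146 in the untreated set, and stood at 368 at day 3 and 435 with AREG, so day 1 was the lowest of the 4. With only cells of at least 200 pump UMIs per 10000 its log2 ratio was -0.90, short of the call. Hamp2, the second hepcidin gene, stood at 1319 against 1657.

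Genes of the cytoskeleton were called higher in part. Of 18 compared 8 were called higher and none lower (median 0.71), a share of 44.4% against 12.1% of all genes compared. Tubb2a, a tubulin, stood at 71.8 CPM against 8.45, Flna, filamin A, at 38.0 against 5.01, and Tmsb10, an actin-binding thymosin, at 1124 against 237. The abundant actin genes were not called: Actb stood at 2091 against 1538 and Actg1 at 2280 against 2155. Tuba1a stood at 59.6 against 6.57 but was left out of the 15 named genes, since 1 cell held 27.1% of its UMIs.

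Nuclear genes of mitochondrial energy supply were mostly below their untreated level, but few were called. Of 71 nuclear genes of oxidative phosphorylation compared, none was called higher and 3 were called lower (4.23%, against 3.03% of all genes compared, a similar share), and 66 had a ratio below 0, at a median log2 ratio of -0.45, while the median of all genes was 0.27. The 3 were Ndufa8 and Ndufb10, subunits of complex I, at 349 CPM against 772 and 548 against 1151, and Atp5g1, a subunit of ATP synthase, at 1596 against 3467. With cells of at least 200 pump UMIs per 10000 none was called lower, and with CPM computed without the most abundant genes 6 were. All 16 genes of the citric acid cycle had a ratio below 0 and none passed the call (median -0.51), from Cs at 493 against 495 to Sdhc at 311 against 603. The 12 mitochondrially encoded genes compared had a median of 0.06, with 7 above and 5 below the untreated level, and none was called. In their level the oxidative genes still marked the cells, since 70 of the 71 stood above the other day 1 cells.

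Fuel genes differed in direction. Ckb, brain-type creatine kinase, which buffers ATP near the pump, stood at 941 CPM at day 1 (905 to 978), 2191 in the untreated set (2166 to 2217), 1871 at day 3 and 1989 with AREG. Day 1 was the lowest of the 4 libraries, and with only cells of at least 200 pump UMIs per 10000 the log2 ratio was -0.72 in place of -1.22. Oxct1, which starts the use of ketone bodies, stood at 345 against 1053, and Lpl, lipoprotein lipase, at 367 against 755. Pdk4, which holds pyruvate back from the citric acid cycle, was called higher, at 94.0 CPM against 15.6, and stood at 22.2 at day 3. Of 15 genes of cholesterol synthesis and uptake, 3 were called lower (Dhcr7, Msmo1 and Hmgcs1) and none higher, a share of 20% against 3.03% of all genes compared, with a median of -0.66. Each of the 3 missed the call under an alternative: Msmo1 (-0.70) and Hmgcs1 (-0.86) with a pump threshold of 25, Hmgcs1 (-0.95) with 200, and Dhcr7 (-0.97) with a pseudocount of 10 CPM. Other day 1 cells went the opposite way, with 8 of the 15 called higher, and so did parietal cells at day 3, with 6. For neither comparison was the share of all genes called computed. Hmgcs1, an early enzyme of the pathway, stood at 90.1 CPM at day 1, 199 in the untreated set, 321 at day 3 and 346 with AREG.

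Among signals that parietal cells can send, the EGFR ligands differed. Egf had 3 UMIs at day 1, or 1.08 CPM (0.222 to 3.15), against 25.2 in the untreated set (22.5 to 28.1), and stood at 2.44 at day 3 and 1.66 with AREG. All 3 libraries after L635 thus stood below the untreated one. Areg, Hbegf, Btc and Tgfa were called higher, 4 of the 10 listed signals compared, against 12.1% of all genes compared. Egf was the 1 called lower, against 3.03%. Btc missed the call without mixed cells (0.97) and with a pseudocount of 10 CPM (0.83). Hbegf stood at 54.2 CPM against 18.1 and at 53.5 in other day 1 cells. Areg stood at 16.2 (11.8 to 21.6) against 2.42, from 45 UMIs, and at 84.7 in other day 1 cells; after subtraction of free RNA by chief markers its log2 ratio was -0.80. Vegfb, a vascular growth factor, stood at 113 against 211 and Vegfa at 85.1 against 56.8. Of 3 cytokine genes compared Cxcl16 was called higher, at 34.1 against 3.83.

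The 15 genes furthest below the untreated set were mostly products of other gastric cells. They were Clps, Pga5, Pla2g1b, Chia1, Chga, Ghrl, Cblif, Gkn3, Pgc, Agr2, Hspa1a, Tmed6, Pdia2, Hspa1b and Apoa1, and 11 of them stood lower in untreated parietal cells than in the other untreated cells. Clps, colipase, stood at 166 CPM at day 1 and 7931 in the untreated set, with 56557 in other untreated cells and 71268 in their free RNA. At day 3 and with AREG it was at 12180 and 14672. Pga5, a pepsinogen, stood at 11.1 against 390, and Ghrl, ghrelin, at 21.5 against 229, each from under 100 UMIs at day 1. Of thinned cells, 77.8% of untreated and 6.71% of day 1 parietal cells held a Clps UMI. The part of free RNA in these values was not tested beyond the subtraction, under which 8 of the single genes followed, 6 of them in this group, were at 0 in both sets.

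Apoa1, unlike most of that group, stood far above the other cells of its library. This apolipoprotein stood at 4236 CPM at day 1 (4160 to 4313), 14730 in the untreated set (14663 to 14796), 1572 at day 3 and 1185 with AREG, against 69.7 in other day 1 cells and 168 in other untreated cells. The untreated library was the highest, day 1 stood between, and both day 3 libraries were the lowest. Of thinned cells 92.3% held an Apoa1 UMI in the untreated set, 64.8% at day 1 (59.0 to 70.2), 26.5% at day 3 and 23.7% with AREG.

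Genes that marked untreated parietal cells were compared as a group chosen on the untreated library alone. The pump, mitochondrially encoded genes and ribosomal protein genes were left out. This gave 403 genes with at least 50 CPM and at least 4-fold the other untreated cells, with 1 CPM added to both levels. Of these 44 (10.9%) were called lower and 8 (1.99%) higher, and 288 had a ratio below 0, at a median of -0.28. At day 3, 39 were called lower and with AREG 36, at medians of -0.12 and -0.13. Since the genes were taken for being high in the same untreated cells, the choice favours ratios below 0, and nothing is read from these shares against the 3.03% and 12.1% of all genes. This set was defined after other values of these data had been seen. Besides those above, the lower ones included Snx6, a sorting nexin (251 CPM against 669), and Mdh1, the cytosolic malate dehydrogenase (607 against 1334). The 8 higher ones were Bmyc, Serinc3, Tinagl1, Cpm, Myrf, Got1, Sephs2 and Cited4. Serinc3, a membrane protein, stood at 1161 CPM against 471, with 263 at day 3, and Got1, an aspartate aminotransferase, at 421 against 194.

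**Figure D4:**
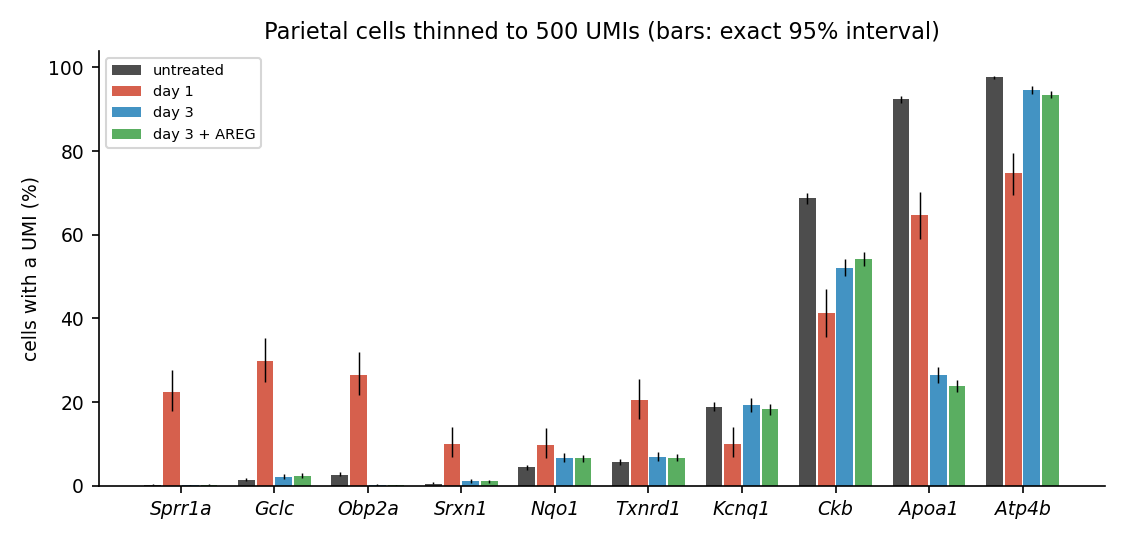
Share of parietal cells with at least 1 UMI of each gene after every cell was thinned to 500 UMIs, in the 4 libraries (298 day 1 cells); error bars are exact 95% binomial intervals for counting error. Sprr1a, Gclc, Obp2a and Txnrd1 are highest at day 1, Ckb and Atp4b are lowest at day 1, and Apoa1 is lowest at day 3 with AREG.

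The day 1 cells differed among themselves along their pump RNA. They were divided, after the values had been seen, at 100 and 200 Atp4a plus Atp4b UMIs per 10000, which gave 85, 123 and 90 cells, and 37, 87 and 81 without the mixed cells. These ranges are steps of 1 measure and not cell types. In the 205 cells without mixed cells, Sprr1a stood at 2891 CPM in the lowest range, 1700 in the middle one and 214 in the highest. Gclc stood at 2220, 1437 and 246, Txnrd1 at 815, 658 and 276, and Srxn1 at 408, 352 and 133. All 4 stood lowest where pump RNA was highest. Even there, Gclc and Sprr1a stood far above the 22.6 and 2.55 CPM of untreated cells of the same range. Sprr1a in that range stood below day 1 free RNA, at 387 CPM, and other day 1 cells, at 429. Gclc stood above both, at 178 and 142. The part of free RNA in this range was not tested.

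Obp2a, Abi1 and Clic3, by contrast, stood highest where pump RNA was highest, though only Clic3 rose at each step. Obp2a stood at 756 CPM in the lowest range, 698 in the middle one and 1902 in the highest. Abi1 stood at 329, 173 and 542, and Clic3, a chloride channel protein, at 47.0, 66.6 and 234. Ly6d, at 295, 382 and 323 CPM, and Hamp, at 113, 212 and 143, stood highest in the middle range. The genes shown were picked after the values had been seen, and they did not all peak in the same range. In all 298 thinned cells, mixed ones included, 32 of the 67 with a Sprr1a UMI also held Gclc (47.8%), against 24.7% of those without. Obp2a was found in 13 of the 67 cells with a Sprr1a UMI (19.4%) and in 28.6% of those without. No interval was computed for these shares. These are shares at 500 UMIs per cell, in which most transcripts of a cell are missed.

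**Figure D5:**
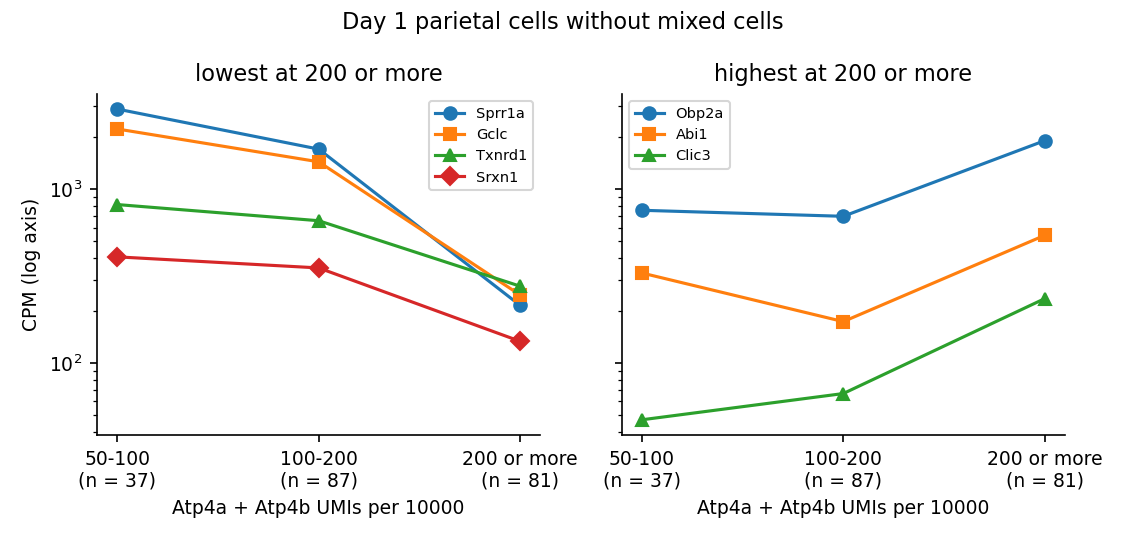
CPM (log axis) of 7 genes in the day 1 parietal cells without mixed cells, in 3 ranges of Atp4a plus Atp4b UMIs per 10000 (37, 87 and 81 cells), from summed counts of 1 library. Sprr1a, Gclc, Txnrd1 and Srxn1 are lowest in the cells with the most pump RNA, and Obp2a, Abi1 and Clic3 are highest there.

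The pump subunits themselves were unequal along this range. The ratio of Atp4b to Atp4a was 0.157, 0.285 and 0.661 from the lowest to the highest range without mixed cells. Untreated cells had 0.951 in the highest range and 0.962 in the middle one (84 cells), and the lowest held 1 untreated cell. The day 1 cells with the most pump RNA stood below 0.951. The ranges are cuts on Atp4a plus Atp4b, which also chose the cells, so these ratios are a description. Apoa1 stood at 1098, 2674 and 7712 CPM and Ckb at 514, 848 and 1599 across the 3 ranges. Pit markers summed to 3550, 3861 and 3695 CPM without mixed cells, and to 26638, 20168 and 6365 with them. Mixed cells were defined in part by these same markers, so leaving them out limits the sums by itself. Nothing is read from the sums without mixed cells. S100a6 in the lowest range stood at 5028 CPM with the mixed cells and 1261 without. Median mitochondrial shares were 20.1%, 23.7% and 13.5%, and their part in these differences was not tested.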

How the data were processed

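RNA of single cells was measured in 4 libraries, 1 per group. Each deposited matrix holds, per the file headers and values, unnormalised UMI counts for every gene in every barcode. Per the submitters' processing notes the genome build was mm39 (GRCm39); an aligner and a counter were not named in the sources at hand. The files list 32227 genes, and the first entry of each of 27 repeated symbols was used. The parietal cells, the gene lists and the rules were chosen with earlier results of these data known.

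Counts were summed over the chosen cells of each library and scaled to CPM. To log2 ratios 1 CPM was added on both sides, so that low genes show smaller differences; folds and CPM have nothing added. Genes with at least 10 CPM in either set were compared, and a log2 ratio of 1 or more in size was called. The named genes were the 15 highest and 15 lowest ratios among genes with at least 50 CPM, without mitochondrial, ribosomal protein, haemoglobin, immunoglobulin and unnamed genes and those with over 25% of UMIs in 1 cell; genes of 35 lists (530 genes, 2 not matched) could also be named, and 1 gene called higher in the ion transport list is not reported here. Intervals at 95% are exact Poisson, Clopper-Pearson or conditional binomial ones and cover counting error only. Cells were thinned to 500 UMIs with numpy 2.4.6; tables used pandas 2.3.3, scipy 1.17.1 and Python 3.11.15. Promoters came from RefSeq (GRCm38.p6), a build other than that of the files, and were matched by symbol alone.

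Alternatives were at least 1000 UMIs, a mitochondrial limit of 20% or none, pump thresholds of 25, 100 and 200 per 10000, no mixed cells, equal weight per cell, a pseudocount of 10 CPM, no filter on low CPM, a CPM total that leaves out mitochondrial and ribosomal protein genes and the next 20 genes in abundance, no deepest cell, and free RNA subtracted by chief or pit markers. The pump threshold of 200, the pit marker subtraction and the unmixed shares were added after seeing the data.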

Additional observations from a re-analysis of the deposited data

How the results depend on the processing

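No paired analysis was possible because there was 1 library per group. The parietal share at day 1 was 5.01% with at most 20% mitochondrial UMIs, 9.14% and 5.43% with pump thresholds of 25 and 100 per 10000, and 5.22% without mixed cells; the untreated share was above it each time, at 24.3%, 34.7%, 30.4% and 22.7%. The counts of genes called higher and lower were 1630 and 443 with each cell weighted equally, 405 and 112 with a pseudocount of 10 CPM, and 1784 and 459 with no filter on low CPM. Those lower were 417 with CPM computed without the most abundant genes and 374 after free RNA was subtracted by chief markers. Acid transport genes called lower were 2 with a pump threshold of 100 and 1 with 200. Oxidative phosphorylation genes called lower were 5 without mixed cells, 7 with equal weights, 6 without the most abundant genes and 0 with a threshold of 200. NRF2 genes called higher were 15 with a threshold of 200 and 19 to 26 under the other alternatives. Wound genes called higher were 12 after subtraction by chief markers and 9 with a threshold of 200. Under the 14 alternatives, 846 of 870 values of 63 called single genes kept their direction and stayed past 2-fold, and 49 of the 63 genes did so in every value they had. The ratio turned for Tmed6 (3.66) and Areg (-0.80) after subtraction by chief markers and for Pla2g1b (3.89) after subtraction by pit markers. Subtraction left 8 and 4 genes at 0 in both sets. The cause of these changes was not tested. With 298 cells, genes under about 10 CPM rest on fewer than 30 UMIs at day 1, which limits what can be said of Egf, Aqp4 and Ptger3.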

Other observations

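Lists for glycolysis, autophagy and cell death held few genes called between the day 1 and untreated parietal cells, each set from 1 library and without a test. Over all genes compared, 12.1% were called higher and 3.03% lower, and the shares of these lists called higher (12.5% for autophagy, 6.67% for glycolysis and 9.09% for cell death) were near or below that. Of 15 glycolysis genes compared, 1 was called higher (Pfkp, a phosphofructokinase) and 0 lower, with a median log2 ratio of -0.04. Of 16 autophagy and lysosome genes, 2 were called higher (Sqstm1 and Ctsl, a lysosomal protease) and 0 lower, with a median of -0.04. Of 11 genes compared that carry out or restrain cell death, 1 was called higher (Bcl2l11, which encodes the BH3 protein BIM), with a median of 0.62.

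Of 7 proliferation markers compared, 3 were called higher at day 1 (Mki67, Rrm2 and Mcm4), or 42.9% against 12.1% of all genes compared. Their list summed to 192 CPM in the day 1 parietal cells and 123 in the untreated ones, against 548 in other day 1 cells and 531 in day 1 free RNA. The part of RNA from other cells in that difference was not tested. All 3 neck cell markers (Muc6, Tff2 and Gkn3) were called lower, against 3.03% of all genes compared. Their list sums were 1994 CPM at day 1 and 4635 untreated, and in other cells 7884 and 15347. Gkn3 missed the call with each cell weighted equally (-0.42).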
